A study of Mus musculus with 6 samples.

Results

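The genes described here are 10 genes of the contractile apparatus of smooth muscle: Acta2, Actg2, Tagln, Cnn1, Myl9, Mylk, Cald1, Smtn, Tpm1 and Tpm2. They were listed by symbol and not by a threshold on measured values, with earlier results of these data known, and all 10 had a row among the 22432 genes of the authors' deposited table. The study sequenced total RNA of germline stem cells, the self-renewing testis cells from which sperm derive, from male mice. The 6 samples had been cultured on DR4 feeder fibroblasts and were used at passage 6 to 8. The cells had been sorted by the surface proteins CDH1 (the adhesion molecule E-cadherin) and THY1. The CDH1+/THY1+ and CDH1-/THY1+ populations had 3 samples each, 1 from the cultures RP7, RP5 and WT1, which carry ages of 8 weeks, 19 days and 5 weeks in that order. RP7 and RP5 have the strain label OCT4/GFP together with Dox-OCT4 in both populations, and WT1 the label C57BL/6. Whether doxycycline was given is not stated in the sources used here, and each culture name may stand for 1 culture only.

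Smooth muscle contracts when myosin II filaments pull on actin filaments. Contraction is switched on by phosphorylation of the myosin regulatory light chain by a calmodulin-dependent kinase, and tropomyosin, caldesmon, calponin, transgelin and smoothelin bind the actin filament and tune or stabilise it. Many of these genes are activated by serum response factor (SRF), which binds the CArG box, together with the coactivators myocardin, MRTFA and MRTFB. The same genes are also used outside muscle, in the stress fibres of fibroblasts and myofibroblasts and in the peritubular myoid cells of the testis.

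The question was which RNA levels differ with surface CDH1 among THY1+ cells. Of the 10 contractile genes, 6 were higher in CDH1+/THY1+ cells (Cnn1, Tpm1, Cald1, Tpm2, Myl9 and Smtn), 1 was lower (Mylk) and 3 were not called (Tagln, Acta2 and Actg2). A gene was called where its deposited adjusted p-value was under 0.05. Among the 19211 genes analysed with an adjusted p-value, 33.5% were called, 17.1% as higher and 16.4% as lower. Rows above a log2 value of 2.14 were left out of these and all later shares over all genes. The share called higher may therefore be too low. Mean normalised counts of the 10 contractile genes were all at least 100, and among the 11133 genes at that level 22.6% were higher and 21.7% lower. The median log2 fold change of the 10 genes was 0.91, against 0.01 over all genes with an adjusted p-value, and 9 of 10 lay above 0. Values with ± are log2 fold changes of CDH1+/THY1+ over CDH1-/THY1+ cells and their standard errors in the authors' test. The table holds no value per sample, so neither a level in each population nor the number of cultures that show a direction can be given. The direction itself rests on the name of the table.

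**Figure D1:**
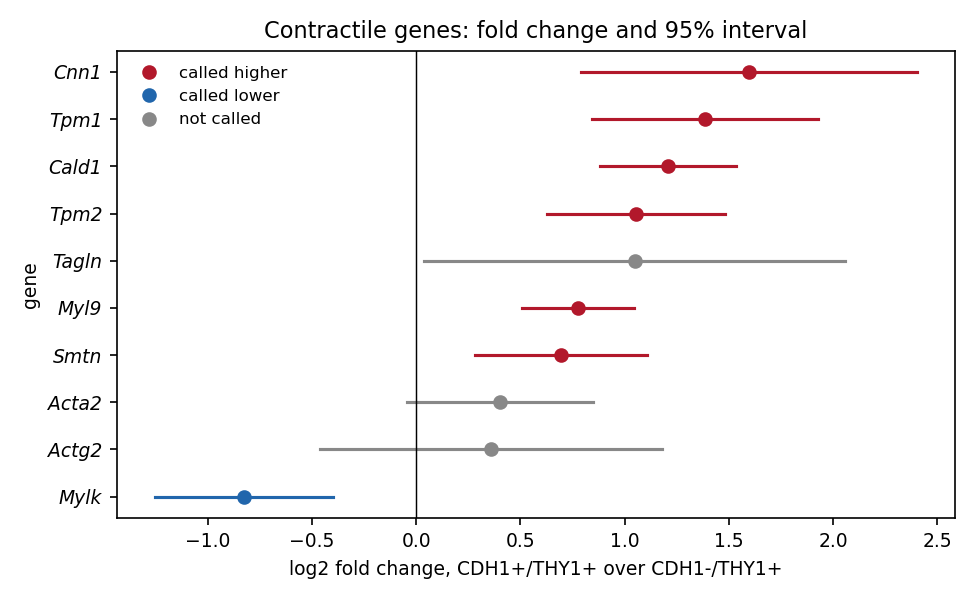
Log2 fold change of each contractile gene (x axis) with its 95% interval, taken as 1.96 standard errors to either side; each row is 1 gene, coloured by the call. The values run from 1.60 for Cnn1 down to -0.83 for Mylk, and the interval of Mylk overlaps that of only 1 other gene, Actg2.

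The promoters of these genes are where SRF and its partners are known to act, so the 250 bases before the start were searched in RefSeq sequences (build GRCm38.p6) for the 8 genes with an entry. Cald1 had 2 windows there and the others 1 each, 9 in all. Of these 8 genes, Acta2 and Myl9 each held 2 CArG boxes, here CC and GG around 6 bases of which at most 1 is C or G. Such a box stood in 8.59% of all 32851 windows of that length, and at least 2 of them in 0.67%. The first set of sequences shows each box in capitals within 30 bases. In Acta2 the boxes lie 84 to 75 and 34 to 25 bases before the RefSeq start (chr19:34255438-34255467 and chr19:34255388-34255417, minus strand). In Myl9 they lie 161 to 152 and 99 to 90 bases before it (chr2:156775293-156775322 and chr2:156775355-156775384, plus strand). GENCODE M21 has a longer transcript of Acta2 whose exon covers both of its boxes, whereas those of Myl9 lie in no exon of the gene. The stricter form with only A or T in the middle stood in 1.47% of all windows and, among these genes, in Myl9 only.
Acta2, far box: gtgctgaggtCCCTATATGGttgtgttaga
Acta2, near box: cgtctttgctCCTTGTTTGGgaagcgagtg
Myl9, far box: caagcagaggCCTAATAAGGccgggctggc
Myl9, near box: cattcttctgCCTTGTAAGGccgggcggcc

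A second element, CATTCC on either strand, is the core of the MCAT element bound by TEAD factors. It stood in 5 of the 9 windows (those of Acta2, Smtn, Tpm1 and Mylk and 1 of the 2 of Cald1) and in 12.6% of all windows. The next pair shows it in capitals, within 30 bases, for the higher Tpm1 (chr9:67049252-67049281, minus strand) and the lower Mylk (chr16:34784780-34784809, plus strand). In Tpm1 it lies within exons of longer GENCODE M21 transcripts, and in Mylk in no exon of the gene. The element was thus in the windows of genes called higher, called lower and not called. The windows of Cnn1 and Tpm2 held neither element. A match is a description of the letters and not a bound site, and genes can have other starts than those in the RefSeq table.
Tpm1: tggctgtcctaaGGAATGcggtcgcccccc
Mylk: tgcagttcagaaCATTCCctggtacgtgca

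Both smooth muscle actins missed the threshold. Acta2, the alpha actin of smooth muscle and myofibroblasts (chromosome 19, 34241090 to 34255590), had a mean count of 5212 and 0.40 ± 0.23 (adjusted p = 0.165) per the authors' deposited table. Its 95% interval ran from 0.97-fold to 1.80-fold, so a modest rise and no difference are both within it. Actg2, the gamma actin of visceral smooth muscle (chromosome 6, 83512905 to 83536265), had a mean count of 171 and 0.36 ± 0.42 (adjusted p = 0.554) per the authors' deposited table, with an interval of 0.73-fold to 2.26-fold. The actins of all cells stood beside them: Actb was higher at 0.51 ± 0.14 (adjusted p = 0.00147), and Actg1 had 0.42 ± 0.20 without a call (adjusted p = 0.0848), in the authors' deposited table. Point values of these 4 actins lay within 0.36 to 0.51. The cardiac actin Actc1, with a mean count of only 13.2, was higher at 1.92 ± 0.63 (adjusted p = 0.00939) per the authors' deposited table, and Acta1 of skeletal muscle was not analysed here.

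Among the proteins that bind along actin filaments, calponin 1 had the highest fold change of the 10 genes. Cnn1, which marks differentiated smooth muscle and restrains the myosin ATPase (chromosome 9, 22099216 to 22109630), was higher by 3.02-fold at a mean count of 127 (1.60 ± 0.41, adjusted p = 0.000654) per the authors' deposited table. Of the genes analysed with an adjusted p-value, 2.63% had a higher fold change, with rows above a log2 value of 2.14 left out. Its interval, 1.73-fold to 5.28-fold, overlapped those of 8 of the other 9 genes. Overlap of intervals is not a test of a difference, and its first place in the order was not tested. The broadly expressed calponins moved the same way: Cnn3 was higher at 0.93 ± 0.12 (adjusted p = 6.78e-14) and Cnn2 at 0.52 ± 0.19 (adjusted p = 0.0224) per the authors' deposited table.

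Transgelin, an actin-bundling protein of the calponin family, had a fold change like that of called genes and a larger error. Tagln (chromosome 9, 45929619 to 45936058) had a mean count of 1759 and a fold change of 2.07, as Tpm2 had, with a standard error of 0.52 where Tpm2 had 0.22 in the authors' deposited table. Its value of 1.05 ± 0.52 had a p-value of 0.0419 before adjustment and 0.101 after it in the authors' deposited table. Its standard error exceeded those of all 200 genes of nearest mean count. The non-muscle transgelin Tagln2 was higher at 0.70 ± 0.14 (adjusted p = 2.81e-06), and the neuronal Tagln3, with a mean count of 11.2, at 1.43 ± 0.54 (adjusted p = 0.0253), in the authors' deposited table. In GENCODE M21 the antisense gene Gm48529 covers 62.4% of the exon bases of Tagln on the opposite strand, and Pcsk7 covers 5.43%. Gm48529 had no row among those analysed, and Pcsk7 had a mean count of 332. For Smtn, the opposite-strand Gm11946 covers 16.3%, with a mean count of 2.46. The sources used here do not say whether the counting used strand, so reads of such pairs cannot be told apart with certainty.

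Tropomyosins, the coiled coils that lie along the actin filament and gate its contact with myosin, were higher throughout the family. Tpm1 (chromosome 9, 67022590 to 67049406) had the largest mean count of the 10 genes, 5910, and was higher by 2.61-fold (1.39 ± 0.28, adjusted p = 6.28e-06) per the authors' deposited table. Tpm2 (chromosome 4, 43514711 to 43523765), at a mean count of 1495, was higher by 2.07-fold (1.05 ± 0.22, adjusted p = 1.37e-05), also per the authors' deposited table. Tpm4 was higher at 1.01 ± 0.15 (adjusted p = 3.1e-10) and Tpm3 at 0.38 ± 0.11 (adjusted p = 0.00285) per the authors' deposited table. All 4 tropomyosin genes of the mouse were therefore called higher, with the intervals of Tpm1, Tpm2 and Tpm4 overlapping each other. Of the filament-end caps, Tmod3 was higher (0.59 ± 0.14) and Tmod2, the neuronal tropomodulin, was lower (-1.15 ± 0.21) per the authors' deposited table. Lmod1, the leiomodin of smooth muscle, had 0.36 ± 0.17 without a call (adjusted p = 0.0953) per the authors' deposited table.

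Caldesmon and smoothelin, which bind actin and stabilise contractile filaments, were both higher. Cald1 (chromosome 6, 34598500 to 34775473) was higher by 2.31-fold at a mean count of 4068, with an interval of 1.84-fold to 2.89-fold (1.21 ± 0.17, adjusted p = 1.6e-11) per the authors' deposited table. It had the smallest adjusted p-value of the 10 genes. Smtn (chromosome 11, 3517523 to 3540612) was higher by 1.62-fold at a mean count of 494 (0.69 ± 0.21, adjusted p = 0.0046) per the authors' deposited table. Smtnl2, a relative of smoothelin, was higher at 1.73 ± 0.28 (adjusted p = 1.73e-08) per the authors' deposited table. Cald1 has a long form typical of smooth muscle and a short form of other cells, made by splicing, and Tpm1 and Tpm2 likewise have muscle and non-muscle forms. GENCODE M21 lists 18 transcripts of Cald1, 21 of Tpm1 and 6 of Tpm2, and a value per gene cannot tell them apart.

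The light chain and its kinase went in opposite directions. Myl9, the regulatory light chain of smooth muscle myosin (chromosome 2, 156775420 to 156781658), was higher by 1.71-fold at a mean count of 892, with an interval of 1.42-fold to 2.06-fold (0.78 ± 0.14, adjusted p = 2.83e-07) per the authors' deposited table. Mylk, the kinase that phosphorylates that chain (chromosome 16, 34745210 to 35002420), was lower by 1.77-fold at a mean count of 388 (-0.83 ± 0.22, adjusted p = 0.000861) per the authors' deposited table. Both intervals excluded 0 and did not overlap. Mylk has 8 transcripts in GENCODE M21, among them long and short kinases, and the locus also gives telokin, a protein without kinase activity, so the fall of the gene's summed count does not say which product was lower. Per the authors' deposited table, the other kinase genes of the family stood at mean counts of 2.27 (Mylk2), 7.41 (Mylk3) and 2.33 (Mylk4). None of the 3 was called, and Mylk2 and Mylk4 had no adjusted p-value.

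**Figure D2:**
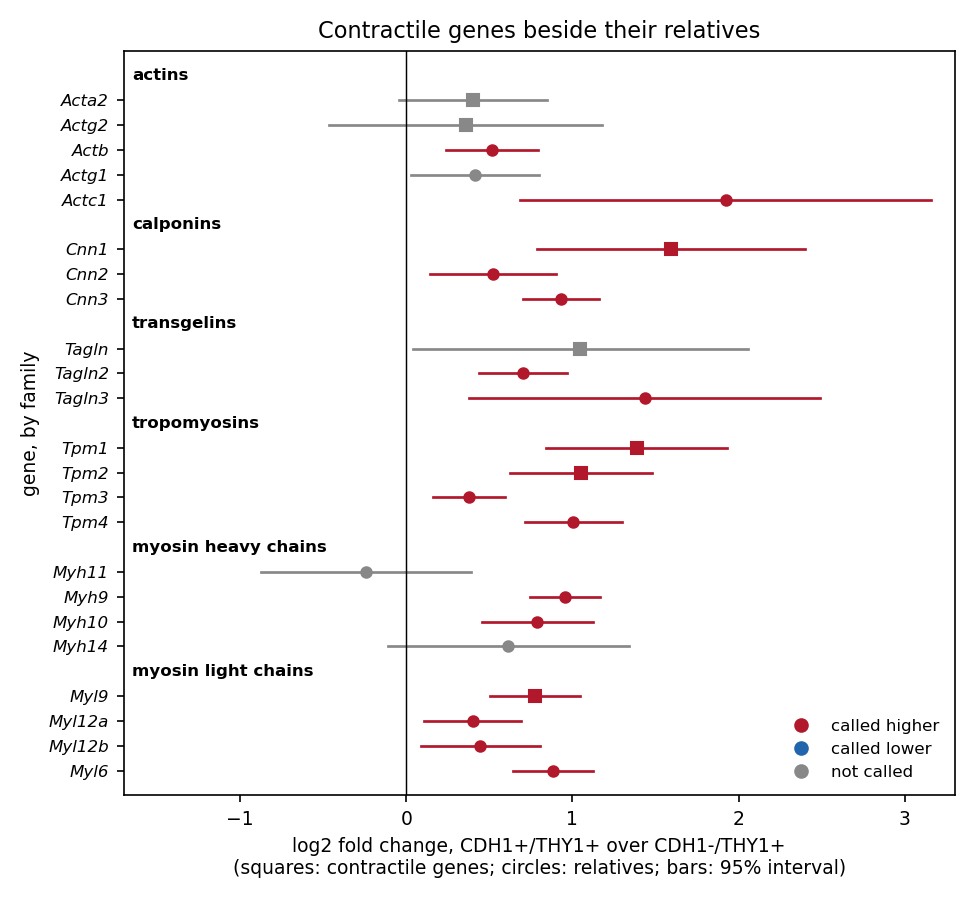
Log2 fold changes (x axis) of contractile genes (squares) and their relatives (circles) by gene family, with 95% intervals as bars and the call as colour. All 4 tropomyosins and all 3 calponins lie above 0 and are called higher, while Acta2, Actg2 and Myh11 have intervals that cross 0.

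Of the 8 listed genes of smooth muscle and non-muscle myosin II chains outside the 10, 5 were higher, 0 were lower and 3 were not called. Of all genes with an adjusted p-value, 17.1% were higher and 16.4% lower. Myh9 and Myh10, the heavy chains of non-muscle myosin II, were higher at 0.96 ± 0.11 (adjusted p = 5.01e-17) and 0.79 ± 0.17 (adjusted p = 3.53e-05) per the authors' deposited table. Myh11, the heavy chain that defines smooth muscle, had -0.24 ± 0.32 (adjusted p = 0.609) per the authors' deposited table at a mean count of 90.5. Per kilobase of exon its level was 11.9, against 1524 for Myh9. Myh14 had 0.62 ± 0.37 without a call (adjusted p = 0.194) per the authors' deposited table. The essential light chain Myl6, at 0.88 ± 0.12 (adjusted p = 1.6e-11), and the ubiquitous regulatory light chains Myl12a, at 0.40 ± 0.15 (adjusted p = 0.0246), and Myl12b, at 0.45 ± 0.18 (adjusted p = 0.0434), were higher in the authors' deposited table. Myl6b, another essential light chain, named after its values were seen, had -0.48 ± 0.40 without a call in the authors' deposited table. Whether the smooth muscle and the non-muscle chains differed from each other was not tested.

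Levels of the contractile genes were compared per length, as the mean normalised count over all 6 samples per kilobase of merged exons. Acta2 stood first at 2373 per kilobase, followed by Tpm1 at 911, Tagln at 885, Myl9 at 768, Tpm2 at 514 and Cald1 at 338. Smtn and Actg2 were near each other at 113 and 110, and Cnn1 and Mylk were lowest at 46.4 and 34.4 per kilobase. The genes with the highest and the lowest fold change, Cnn1 and Mylk, were thus the pair with the lowest levels per length, and the gene with the highest level, Acta2, was not called. With the length of the longest transcript in place of merged exons, Cald1 moved to 852 and from the sixth to the fourth place, and Tpm1 moved to 2045 and kept the second. The first 3 and the last 4 places were the same under both lengths. The spread of these levels over samples is unknown, so neighbours in the order cannot be told apart by a test.

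**Figure D3:**
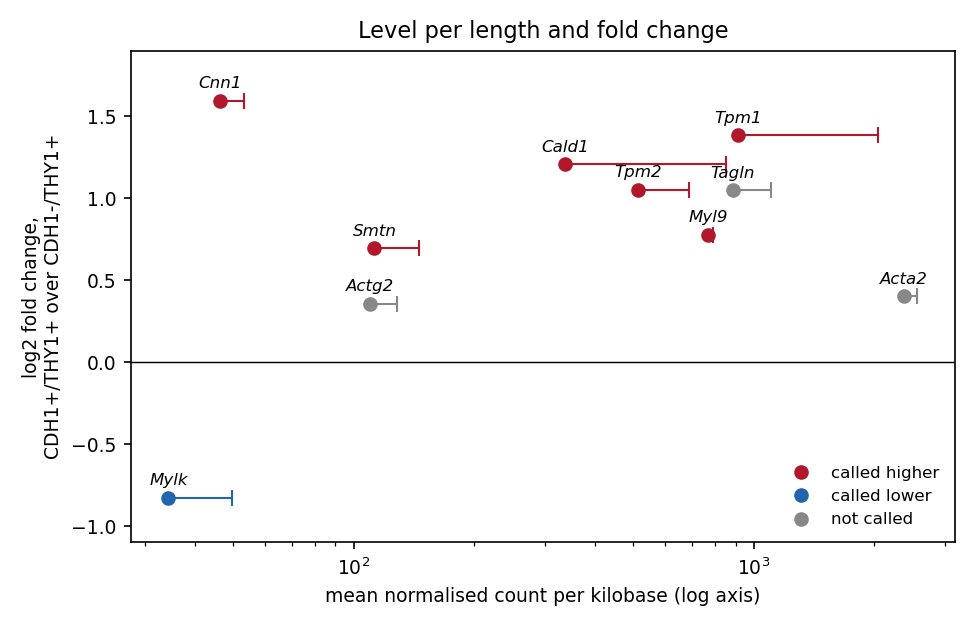
Mean normalised count per kilobase (log x axis) against log2 fold change (y axis) for the 10 contractile genes. Circles use merged exons and ticks the longest transcript of each gene, and Acta2, at 2373 per kilobase, is the most abundant at a fold change that was not called.

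Levels within families were set side by side per kilobase of merged exons, with the ratio by the longest transcript given second where it moved by over 1.5 times or turned. Actb was 9.53 times and Actg1 2.60 times the level of Acta2, while Acta2 was 21.6 times Actg2. Cnn3 was 37.0 times and Cnn2 30.2 times the level of Cnn1. Tpm4 was 3.49 times Tpm1 by merged exons and 1.61 times by the longest transcript, and 6.19 times Tpm2. Tpm1 was in turn 1.22 times Tpm3. Tagln2 was 1.20 times Tagln. Myl12a was 1.86 times Myl9 by merged exons and 3.12 times by the longest transcript. Myl9 was 1.08 times Myl12b by merged exons and 0.86 times by the longest transcript, so the order of that pair depends on the length used. The 10 genes together took 0.121% of all mean normalised counts, and Tpm1, Acta2 and Cald1 made up 74.0% of that.

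Most listed markers of differentiated smooth muscle were not called. Of 12 such genes with an adjusted p-value (Actg2 among them), 4 were higher, 0 lower and 8 not called, and the median was 0.36. Values of 4 of the 12 lay below 0, that of Myh11 among them. Of all genes with an adjusted p-value, 17.1% were higher and 16.4% lower. Their counts were spread widely, from Itga8, an integrin gene named after its values were seen, at 522.5 down to genes with a few counts. Myocd, the coactivator of smooth muscle, had a mean count of 6.08 in the authors' deposited table. Kcnmb1, a potassium channel subunit, had 1.45 there, without an adjusted p-value, and is not among the 12. Des, the intermediate filament gene of muscle, was not analysed here. The 4 higher genes were Ppp1r14a, an inhibitor of myosin phosphatase (1.80 ± 0.47, mean count 39.5), Smtnl2, the integrin ligand gene Npnt (1.69 ± 0.35) and the small heat shock protein gene Hspb6 (1.19 ± 0.42, mean count 46.8) per the authors' deposited table. The 10 genes are called contractile genes here, since they are not markers of smooth muscle cells alone. Of 19 striated muscle genes with an adjusted p-value, 7 were higher and 4 lower. The higher ones had mean counts of 75.1 or less, among them Tnnt2, Tnnt3 and Tnni2, and the lower ones included Myh6 (-1.79 ± 0.26) and Ttn (-1.62 ± 0.33) per the authors' deposited table.

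Fibroblasts are the feeder cells of these cultures, and their marker genes had high levels. Of 22 fibroblast markers, 8 were higher, 0 lower and 14 not called, with a median of 0.71. The called ones of largest change were S100a4 (1.43 ± 0.57), Vim (0.95 ± 0.26), Prrx1 (0.95 ± 0.25) and Fn1 (0.72 ± 0.14) per the authors' deposited table. Mean normalised counts of the 22 markers summed to 17.9 times those of the 10 contractile genes. Pericyte markers had 3 higher, 1 lower and 4 not called of 8, Sertoli cell markers 2 higher, 2 lower and 7 not called of 11. Of all genes with an adjusted p-value, 17.1% were higher and 16.4% lower. The Sertoli cell markers, at 18.2% in each direction, were near these shares. Germ cell markers had 12 lower, 0 higher and 3 not called of 15, with a median of -1.68, and included Tdrd1 (-2.22 ± 0.20) and Zbtb16 (-1.86 ± 0.18) per the authors' deposited table. The part of these other cells in the values of the contractile genes was not tested. In bulk samples, fewer cells of a type and less RNA per cell cannot be told apart.

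Standard errors were large for their level in many contractile genes and in the markers of several cell types. Against the 200 genes of nearest mean count, the standard error stood at the 90th percentile or above for 6 of the 10 contractile genes and for 14 of the 22 fibroblast markers. Tagln had the 100th percentile, Actg2 the 97th, Tpm1 the 96th and Acta2 the 91.5th. The median gene of the 10 stood at the 90th percentile, and the median percentile was 94.0 for the fibroblast markers, 96.0 for 7 Sertoli cell markers, 90.25 for 6 pericyte markers and 85.0 for 15 germ cell markers, against 53.75 for 56 genes of the contractile lists without the 10. Myl9 stood at the 9th percentile, Cald1 at the 57th, Mylk at the 68th and Smtn at the 76.5th. Of the called genes, Myl9 thus had a small error for its level, while Cnn1 and Tpm2 stood at the 90th percentile and Tpm1 at the 96th.

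**Figure D4:**
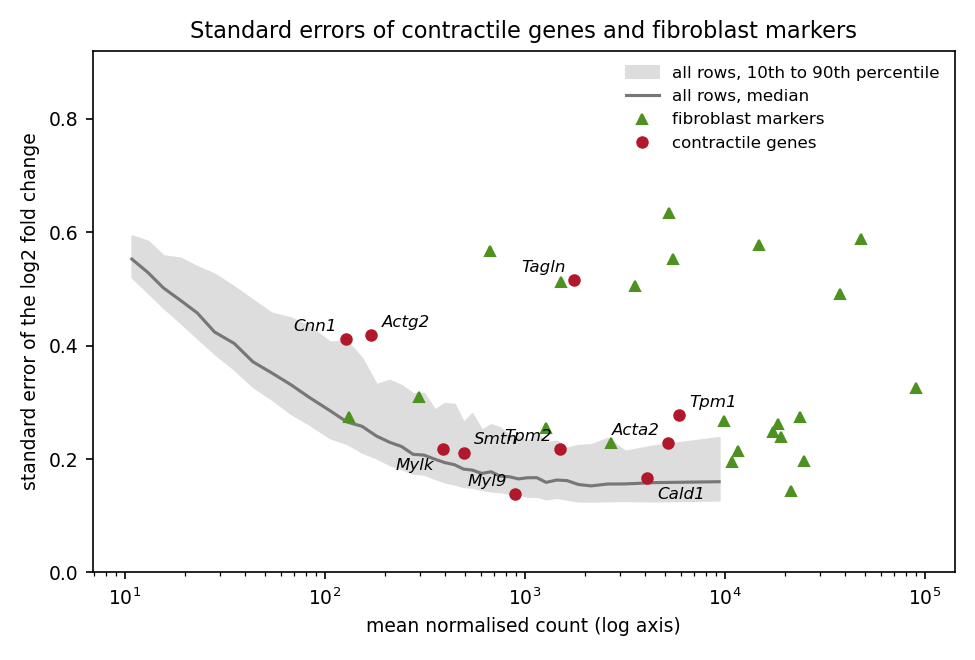
Standard error of the log2 fold change (y axis) against mean normalised count (log x axis) for contractile genes (circles) and fibroblast markers (triangles), over the median and the 10th to 90th percentile of all genes in bins of mean count. Tagln sits at 0.52, well above the band, and Myl9 at 0.14, near its lower edge.

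Regulators of contraction outside the 10 genes had calls in both directions. Of all genes with an adjusted p-value, 17.1% were higher and 16.4% lower, for comparison with the counts here. Of 21 other genes of light chain kinases, phosphatase subunits and their regulators with an adjusted p-value, 7 were higher, 2 lower and 12 not called, with a median of 0.15. The higher ones included Ppp1r14a, the death-associated kinase Dapk1 (1.09 ± 0.26) and the calmodulin gene Calm3 (0.52 ± 0.21) per the authors' deposited table. Dapk2, a calmodulin-regulated kinase, was among the lower ones (-1.77 ± 0.28, adjusted p = 6.08e-09) in the authors' deposited table. Actin crosslinkers and adhesion-anchored actin proteins had 15 higher, 0 lower and 5 not called of 20, with a median of 0.75. Csrp2, a LIM protein of smooth muscle, was higher at 2.07 ± 0.23, Csrp1 at 1.16 ± 0.12, Tgfb1i1 at 1.04 ± 0.41 and the actinin gene Actn4 at 1.00 ± 0.16 in the authors' deposited table. Over the 7 contractile lists without the 10 genes, 37 of 64 were higher and 3 lower, with a median of 0.52.

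SRF and its broadly expressed coactivators were not called or were lower. Srf had -0.18 ± 0.14 (adjusted p = 0.335) and Mrtfa -0.21 ± 0.19 (adjusted p = 0.409) without a call, and Mrtfb was lower at -0.79 ± 0.21 (adjusted p = 0.0012), in the authors' deposited table. Higher genes of this list were the TEAD factors Tead4 (1.80 ± 0.37) and Tead1 (0.93 ± 0.18), Gata6 (0.86 ± 0.35) and Foxo4 (0.75 ± 0.20) per the authors' deposited table. Of 22 SRF and MRTF target genes, a list that shares members with those above, 12 were higher, 0 lower and 10 not called, with a median of 0.62. They included Filip1l (1.26 ± 0.28), the matricellular gene Ccn1 (1.21 ± 0.16) and Ankrd1 (1.11 ± 0.31) per the authors' deposited table. Of 10 splicing regulators of contractile transcripts, 3 were higher and 1 lower. The shares over all genes, for the list with SRF, the targets and these regulators, were 17.1% higher and 16.4% lower. Rbpms2 (1.49 ± 0.30) and Rbpms (0.85 ± 0.25), known regulators of smooth muscle splicing, and Mbnl2 (0.69 ± 0.21) were higher, and Ptbp2 (-0.38 ± 0.14) was lower, in the authors' deposited table.

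**Figure D5:**
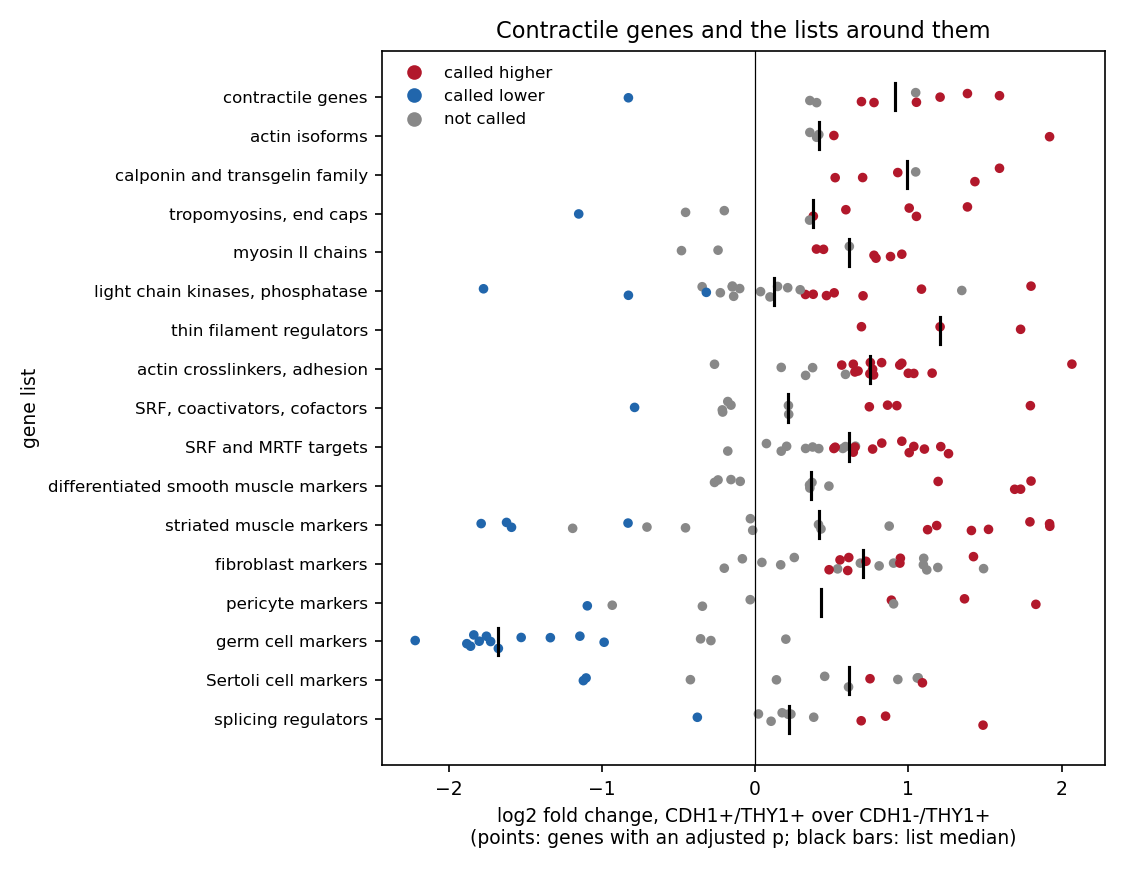
Log2 fold change (x axis) of every gene with an adjusted p-value in each list (rows), coloured by the call, with list medians as black bars. The contractile genes have a median of 0.91, fibroblast markers 0.71 and germ cell markers -1.68.

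Stricter calls changed 1 of the 10 genes. Under the Benjamini-Yekutieli adjustment, 5 were higher and 1 lower, against 7.46% and 8.81% of all genes, and Smtn lost its call (adjusted p = 0.0629). At an adjusted p under 0.01, 6 were higher and 1 lower, against 11.0% and 12.0% of all genes. With a fold of at least 1.5 added to the threshold of 0.05, the counts were again 6 and 1, against 13.7% and 12.2%.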

How the data were processed

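RNA of 3 CDH1+/THY1+ and 3 CDH1-/THY1+ samples had been sequenced from stranded libraries depleted of ribosomal RNA, per the labels' protocols. The submitters' processing notes name trimming by Trimmomatic 0.32, alignment software TopHat2 2.1.1, counting by featureCounts (Subread 1.5.0-p3), and testing by DESeq2 1.12.3 under R 3.3.1, with the build GRCm38.p4. The annotation, counting settings and model formula are not given in the sources used here. The authors' deposited table holds, per gene, a mean normalised count over all samples (a signal that is never negative), a log2 fold change with its standard error, the Wald statistic (a score), and a p-value with an adjusted p-value. Depth per sample is unknown, and p-values measure the spread between these samples only. Standard errors did not exceed 0.639, so fold changes may be shrunken. The rows used ended at a log2 value of 2.14, and rows above that were not analysed here. Shares and ranks over all genes therefore leave such rows out, and shares called higher may be too low.

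Symbols, positions and lengths came from GENCODE M21 (GRCm38), with 22317 of 22432 identifiers matched, and promoters from RefSeq, with 8 of the 10 genes matched. No model was fitted. Intervals are 1.96 standard errors to either side. Calls used the adjusted p over all genes. Alternatives were a threshold of 0.01, a Benjamini-Yekutieli adjustment over 22330 genes, a mean count of at least 100, a fold of at least 1.5 and, for levels, the longest transcript. The adjustments and the ranking of standard errors (among 200 genes of nearest mean count, from a mean count of 50) were tested on simulated data, with Python 3.11.15, pandas 2.3.3 and numpy 2.4.6. Words of 50 bases of each gene's longest coding transcript were searched in the transcripts of other genes: 0.352% of those of Acta2 were shared, and 0% of those of the other 9 genes.

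The genes and the 16 lists were chosen with earlier results of these data known. All 10 genes are named, with their nearest relatives and partners, and of each other list at most the 4 called genes of largest change in each direction. Some fibroblast markers without a call are named as well. Some results on regulators of contraction are not reported here.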

Additional observations from a re-analysis of the deposited data

How the results depend on the processing

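Under an adjusted p of 0.01 and under a fold of at least 1.5, the contractile genes kept counts of 6 higher and 1 lower. Under the Benjamini-Yekutieli adjustment they had 5 and 1. A mean count of at least 100 could not change these counts, since all 10 genes reach it. For the 7 lists of related contractile genes, 37 of 64 were higher. This became 24 under the Benjamini-Yekutieli adjustment, 28 at 0.01, 33 with the count minimum and 27 with the fold minimum. The lower count of 3 was 2 or 3 under these alternatives. Over all genes the higher share also fell, from 17.1% to 7.46% under Benjamini-Yekutieli, 11.0% at 0.01 and 13.7% with the fold minimum. Among genes that reached the count minimum it was 22.6%. Of 128 counts over the single lists, 105 stayed within 1.5 times the main count and 23 did not. Each alternative can only remove calls, so a main count of 0 had to stay at 0. Such counts are among the 105, so that number overstates how stable the counts are. The called fibroblast markers fell from 8 of 22 to 3 under the Benjamini-Yekutieli adjustment and to 4 at 0.01. The share over all genes fell under the same alternatives, as given above. The higher striated muscle genes fell from 7 of 19 to 0 with the count minimum. Adjusting only over genes that reached a mean count of 100 gave 0.0815 for Tagln, 0.136 for Acta2 and 0.501 for Actg2 and changed no call among the 10 genes. Levels per length moved by over 1.5 times for 2 of the 10 genes, Cald1 and Tpm1, with the longest transcript. No paired analysis was possible because the table holds no value per sample, so the culture could not be used as a replicate block and no sample could be left out. Low counts limit Myocd, Kcnmb1, Mylk2 and Mylk4. An absent call says little for Myocd, and Kcnmb1, Mylk2 and Mylk4 had no adjusted p-value and could not be called.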
